A study of Homo sapiens with 6 samples.

Results

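Transcripts of 9 genes of glycogen metabolism were examined in PC9ER cells. This human line comes from non-small cell lung cancer, depends on the growth factor receptor EGFR, and is resistant to gefitinib, a small-molecule inhibitor of the EGFR kinase. The genes are PYGM, PYGL, PYGB, GYS1, GYG1, GBE1, UGP2, PPP1R3B and PPP1R3C, and all 9 were found by symbol among the 15376 rows of the deposited table of coding genes. They were put together as genes of 1 pathway when the gefitinib against control values of these libraries were already known, with PYGM among the largest rises. Their differences between the groups are therefore given as a description, without a test. RNA sequencing libraries were made from 3 samples given 1 µM gefitinib for the last 6 h and from 3 control samples given the vehicle DMSO. For both groups the labels give 1 protocol with 72 h of DMSO in place of a Notch inhibitor, medium with 10% fetal calf serum and overnight serum withdrawal. They do not state whether control cells were also without serum, so drug and serum cannot be told apart if the groups differed in it. They do not say that replicates were separate cultures either, so every error and p-value covers the spread between these libraries, which may be technical.

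Glycogen is the branched glucose store of the cell. Its synthesis starts on the self-glucosylating primer glycogenin (GYG1), is extended by glycogen synthase (GYS1) from UDP-glucose made by UGP2, and is branched by GBE1. Glycogen phosphorylase removes glucose units as glucose 1-phosphate and exists as a muscle (PYGM), a liver (PYGL) and a brain (PYGB) isozyme, each from its own gene. PPP1R3B and PPP1R3C encode subunits that bring protein phosphatase 1 to glycogen, where it activates the synthase and inactivates the phosphorylase. Phosphorylase kinase acts in the opposite sense on phosphorylase. Only transcripts were measured here, not glycogen or enzyme activity.

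Depth was between 13674237 and 38581498 reads in coding genes for gefitinib libraries and between 16211544 and 25639050 for control libraries. Values are normalized reads, that is reads scaled by the authors to the same total in each library, and each log2 difference subtracts control from gefitinib on the scale log2(normalized reads + 1), which understates changes of low genes. Over all 15229 genes with any reads the median log2 difference was 0.10. The first principal component of the log2 values, with 71.4% of the variance, separated the groups. It ran from -70.5 to -51.4 in gefitinib and from 62.2 to 63.2 in control libraries. The second component, with 9.59% of the variance, set control replicate 1 apart at 38.1, against -12.6 and -28.8 for control replicates 2 and 3. Gefitinib replicate 1 lay at 23.3 on it, against -8.86 and -11.1 for gefitinib replicates 2 and 3. All 6 epithelial markers were abundant, with summed values from 67726 to 70679 in gefitinib and from 81344 to 116558 in control libraries. They did not move together: EPCAM had a higher mean with gefitinib (12017 against 9764), and CDH1, KRT7, KRT8, KRT18 and KRT19 had lower means. Of the lung adenocarcinoma markers, NAPSA and SFTPB stayed between 4.23 and 25.7 normalized reads and SFTPC at or below 0.705 in every library, and NKX2-1 was not analysed here.

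The PYG genes encode the phosphorylases, and PYGM stood apart from all other members. PYGM (chromosome 11, 64746389 to 64760297, GRCh38, minus strand) had 282, 444 and 629 normalized reads in gefitinib libraries 1, 2 and 3, against 7.05, 6.69 and 1.93 in control libraries 1, 2 and 3. The lowest gefitinib library was thus far above the highest control library, and the gefitinib libraries differed among themselves as well. Before scaling these were 213, 491 and 1342 reads with gefitinib and 10, 6 and 2 reads in control. The means were 452 ± 174 and 5.23 ± 2.86 (SD, n = 3 each), and the log2 difference was 6.24 ± 0.45 (SE), the rank of 4 from the top among 15229 genes. The ratio of summed reads, corrected for depth, was 95.3 with an exact 95% interval from 60.1 to 161, which covers counting error only. In control cells PYGM was thus a transcript of a few reads per library, and the size of the ratio rests on those 18 reads. In these bulk samples, more cells with PYGM transcripts and more PYGM transcripts per cell cannot be told apart.

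No other annotated gene of GENCODE release 29 overlaps PYGM, and its nearest coding genes lie on the same strand. RASGRP2, 932 bases downstream of PYGM, had 6.61, 2.71 and 7.97 normalized reads in gefitinib libraries and 3.53, 4.46 and 10.6 in control libraries, so its groups overlapped. SF1, a splicing factor gene 4308 bases upstream, had 7375, 7511 and 7961 normalized reads in gefitinib libraries and 5090, 5467 and 5687 in control libraries. SF1 was thus higher with gefitinib too, by far less than PYGM, and the part of transcripts running from SF1 into PYGM was not tested. PYGM is best known from skeletal muscle. Of 13 skeletal muscle markers 6 were in the table, and 5 of these (ACTA1, CKM, MYLPF, TNNC2 and TNNI2) had at most 6.61 normalized reads in any library. Among these TNNC2, a troponin C gene, was higher in every gefitinib library, with 6.61, 4.52 and 5.63 normalized reads against 1.41, 2.23 and 0 in control libraries. The remaining marker, the myoglobin gene MB, had 758, 806 and 805 normalized reads in gefitinib libraries and 1082, 1194 and 1251 in control libraries. The 6 markers together summed to between 766 and 821 with gefitinib and between 1087 and 1256 in control.

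The genes whose log2 values followed PYGM most closely across the 6 libraries, among 12096 genes with a mean of 10 or more, were ZNF823, DYNC1I2, ZNF140, IFT20 and ZBTB5. Their Pearson correlations with PYGM were between 0.9986 and 0.9991, and 273 genes exceeded 0.99. All points share the same 2 groups, so any gene with a clear difference between the groups and little spread scores high. The 5 genes had the order of PYGM among gefitinib libraries, lowest in replicate 1 and highest in replicate 3. Like PYGM, with 2 reads there, they were lowest in control replicate 3. They were picked by correlation over these same 6 libraries, which favours a shared order, so this is no separate likeness. Depth had the same order among gefitinib libraries, with 13674237, 20013453 and 38581498 reads in replicates 1, 2 and 3. Among control libraries depth was lowest in replicate 2, at 16211544 reads. The part of depth in the order was not tested. The 5 genes differed in size of change from PYGM, with log2 differences from 0.73 for ZBTB5 to 1.36 for ZNF823.

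PYGL, the liver isozyme gene (chromosome 14, 50857891 to 50944736, minus strand), had 2976, 2796 and 2856 normalized reads in gefitinib libraries, against 4094, 3470 and 3769 in control libraries. Every gefitinib library was below every control library, and the log2 difference was -0.39 ± 0.08 (SE). PYGB, the brain isozyme gene (chromosome 20, 25248069 to 25298014, plus strand), had 2530, 2817 and 2817 normalized reads in gefitinib libraries, against 1925, 2780 and 3142 in control libraries. The groups of PYGB overlapped, with control replicate 1 below all others. Its log2 difference was 0.09 ± 0.16, which was -0.12 without control replicate 1 and -0.00091 with DESeq2.

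**Figure D1:**
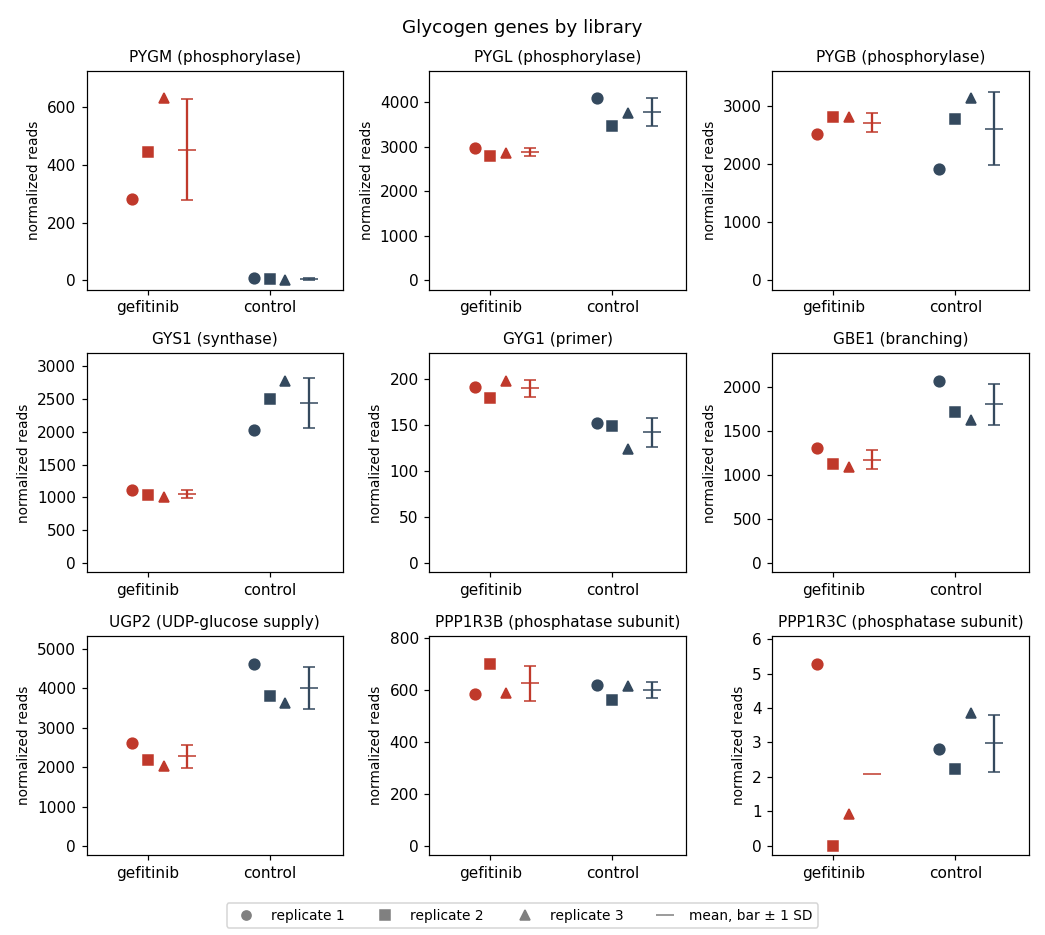
Normalized reads (y axis) of the 9 glycogen genes in gefitinib and control libraries (x axis). Each symbol is 1 library, the horizontal line is the mean and the bar ± 1 SD of 3 libraries (no bar where the SD exceeds the mean), and each panel has its own scale. PYGM and GYG1 have all gefitinib libraries above all control libraries, PYGL, GYS1, GBE1 and UGP2 have them below, and PYGB, PPP1R3B and PPP1R3C overlap.

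Division by exon length allows the isozymes to be set against each other. Summed over the 3 isozyme genes, the level per kilobase of annotated exon was 1242, 1301 and 1351 normalized reads in gefitinib libraries and 1285, 1346 and 1488 in control libraries, and the groups overlapped. PYGM made up 4.55%, 6.84% and 9.35% of this sum in gefitinib libraries, against 0.110%, 0.0999% and 0.0260% in control libraries. The muscle isozyme thus remained the least abundant of the 3 transcripts in every library. PYGL made up 46.3% ± 3.20 with gefitinib and 57.6% ± 7.61 in control, and PYGB 46.8% ± 1.44 and 42.3% ± 7.63 (SD, n = 3 each). With the longest transcript of each gene as its length PYGL was the larger of the pair in both groups, at 54.2% with gefitinib and 66.3% in control, so the order of PYGL and PYGB with gefitinib depends on the length used.

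**Figure D2:**
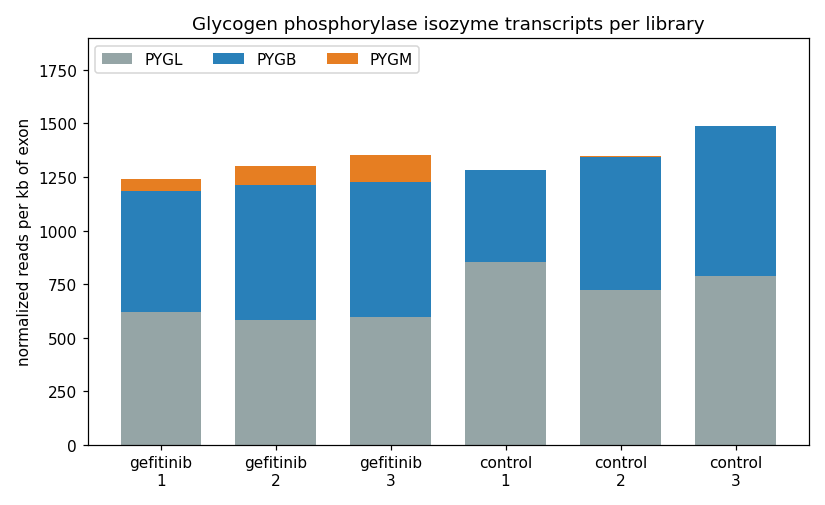
Normalized reads per kilobase of exon (y axis) of PYGL, PYGB and PYGM stacked for each library (x axis). The stack is between 1242 and 1351 in gefitinib libraries and between 1285 and 1488 in control libraries, and PYGM is 4.55% to 9.35% of the stack in gefitinib libraries and at most 0.110% in control libraries.

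Of the genes of glycogen synthesis, GYS1, UGP2 and GBE1 were lower with gefitinib, as the phosphorylase gene PYGL was, and GYG1 was higher. GYS1, the glycogen synthase gene expressed outside the liver (chromosome 19, 48968125 to 48993310, minus strand), had 1114, 1029 and 1005 normalized reads in gefitinib libraries, against 2030, 2502 and 2772 in control libraries. All gefitinib libraries were below all control libraries, with means of 1049 ± 57.2 and 2435 ± 376 (SD, n = 3 each). The log2 difference of GYS1 was -1.20 ± 0.12 (SE), the lowest of the 9 genes, and it was -1.33 without control replicate 1.

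UGP2, which makes UDP-glucose for the synthase (chromosome 2, 63840940 to 63891562, plus strand), had 2612, 2175 and 2033 normalized reads in gefitinib libraries, against 4634, 3798 and 3640 in control libraries. GBE1, the branching enzyme gene (chromosome 3, 81489699 to 81762161, minus strand), had 1301, 1128 and 1094 normalized reads in gefitinib libraries, against 2068, 1714 and 1622 in control libraries. Both genes were lower in every gefitinib library than in every control library, and in both the library of replicate 1 was the highest of its group. The log2 differences were -0.82 ± 0.12 for UGP2 and -0.61 ± 0.11 for GBE1 (SE). GYG1, the primer gene (chromosome 3, 148991341 to 149027668, plus strand), had 192, 180 and 198 normalized reads in gefitinib libraries, against 152, 149 and 125 in control libraries. It was higher in every gefitinib library than in every control library, unlike the other genes of synthesis, with a log2 difference of 0.42 ± 0.16.

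Ratios within a library do not depend on the scaling between libraries. The summed phosphorylase level per kilobase was 4.74, 5.37 and 5.71 times that of GYS1 in gefitinib libraries, against 2.69, 2.28 and 2.28 times in control libraries, and the groups did not overlap. GBE1 was at 0.960, 0.900 and 0.894 times GYS1 in gefitinib libraries, against 0.836, 0.562 and 0.480 times in control libraries. Control replicate 1 was the highest control library in both ratios, and its GBE1 ratio lay nearer to the gefitinib libraries than to the other two control libraries. The denominator GYS1 was at 247 ± 13.5 per kilobase with gefitinib and 573 ± 88.5 in control (SD, n = 3 each). The phosphorylase sum was at 1298 ± 54.5 and 1373 ± 104. The higher ratios thus come with lower GYS1, not with a higher phosphorylase sum or higher GBE1.

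**Figure D3:**
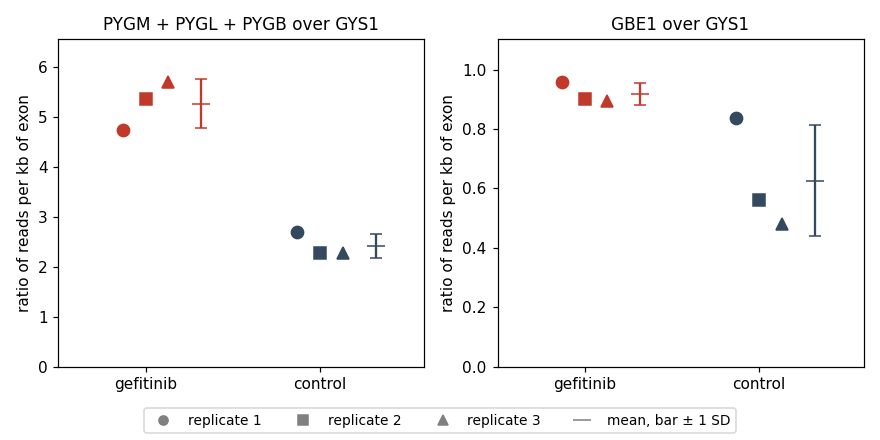
Ratio of normalized reads per kilobase of exon (y axis) in gefitinib and control libraries (x axis), for the 3 phosphorylase genes together over GYS1 and for GBE1 over GYS1. Symbols are libraries, the line is the mean and the bar ± 1 SD, n = 3. The phosphorylase ratio is between 4.74 and 5.71 with gefitinib and between 2.28 and 2.69 in control, and the denominator GYS1 is lower in every gefitinib library.

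The genes of the phosphatase subunits showed no separation of the groups. PPP1R3B (chromosome 8, 9136255 to 9151574, minus strand) had 586, 702 and 589 normalized reads in gefitinib libraries, against 621, 563 and 614 in control libraries. The groups overlapped, and the log2 difference of 0.06 ± 0.11 (SE) was -0.0032 with TMM scaling and -0.028 without gefitinib replicate 2. PPP1R3C (chromosome 10, 91628442 to 91633054, minus strand) had 4, 0 and 2 reads in gefitinib libraries and 4, 2 and 4 reads in control libraries before scaling. At this depth a difference in PPP1R3C was not detected. The depth-corrected ratio of 0.503 has an exact 95% interval from 0.150 to 1.53, for counting error only. This width leaves the size of any difference open. The log2 difference of PPP1R3C was -0.77 ± 0.63, and -1.49 without gefitinib replicate 1, which held 4 of the 6 reads.

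All 9 genes had reads in at least 1 library, and 8 had a mean of 10 or more, PPP1R3C being the exception. At an adjusted p below 0.05 in limma's trend test over all genes, 1 of the 9 was called higher and 4 lower, where 28.3% and 22.8% of all 15229 genes were. Without control replicate 1 the count called higher was 2, GYG1 being the other, and without gefitinib replicate 1 the count called lower was 5, with PPP1R3C. The median log2 difference of the 9 was -0.39, against 0.10 over all genes tested. The groups did not overlap for 2 members higher with gefitinib and 4 lower, where this held for 32.3% and 25.7% of all genes. Nothing is read from these counts, since the genes were chosen with the same contrast known.

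Per kilobase of exon, the order of mean levels with gefitinib was PYGB at 608 ± 37.0, PYGL at 599 ± 19.1, UGP2 at 350 ± 46.5, GYS1 at 247 ± 13.5, GBE1 at 227 ± 21.6, PPP1R3B at 108 ± 11.5, PYGM at 90.6 ± 34.9, GYG1 at 54.1 ± 2.67 and PPP1R3C at 0.823 ± 1.12 normalized reads (SD, n = 3). The neighbours PYGB and PYGL, GYS1 and GBE1, and PPP1R3B and PYGM overlapped between libraries. In control the order was PYGL at 787 ± 65.1, UGP2 at 619 ± 82.2, PYGB at 585 ± 140, GYS1 at 573 ± 88.5, GBE1 at 348 ± 45.5, PPP1R3B at 104 ± 5.43, GYG1 at 40.5 ± 4.36, PPP1R3C at 1.18 ± 0.327 and PYGM at 1.05 ± 0.574. UGP2, PYGB and GYS1 overlapped between control libraries, and so did PPP1R3C and PYGM. By its mean, PYGM thus held the last of the 9 places in control, although it was above PPP1R3C in control libraries 1 and 2. With gefitinib its mean lay between those of the phosphatase subunit gene PPP1R3B and the primer gene GYG1.

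GYS1, UGP2, GBE1 and PYGL were lower in every gefitinib library than in any control library, as were 25.7% of all genes tested. GYG1 was higher in every one, as were 32.3% of all genes. PYGM was higher in every one too, but no promoter was matched to it. The promoters of the other 5 of these members are shown as a description. Each spans 250 bases before to 50 after a gene start annotated by RefSeq (GRCh38.p14), written 5′ to 3′ on the strand of the gene: GYS1 at chr19:48993260-48993559, UGP2 at chr2:63840719-63841018 and chr2:63841646-63841945, GBE1 at chr3:81761596-81761895, PYGL at chr14:50944434-50944733 and GYG1 at chr3:148991290-148991589. A RefSeq start need not be the outermost GENCODE start of a gene. The stretches of PYGL, GBE1 and UGP2 at 63841646 lie wholly within the GENCODE span of the gene, and the others partly. Capitals mark matches to the motifs searched.
GYS1: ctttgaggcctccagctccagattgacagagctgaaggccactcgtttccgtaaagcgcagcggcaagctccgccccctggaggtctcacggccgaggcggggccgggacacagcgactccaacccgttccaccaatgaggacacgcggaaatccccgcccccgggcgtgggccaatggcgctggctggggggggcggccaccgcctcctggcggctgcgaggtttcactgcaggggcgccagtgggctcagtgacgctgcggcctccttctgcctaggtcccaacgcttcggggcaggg
UGP2 at 63840719: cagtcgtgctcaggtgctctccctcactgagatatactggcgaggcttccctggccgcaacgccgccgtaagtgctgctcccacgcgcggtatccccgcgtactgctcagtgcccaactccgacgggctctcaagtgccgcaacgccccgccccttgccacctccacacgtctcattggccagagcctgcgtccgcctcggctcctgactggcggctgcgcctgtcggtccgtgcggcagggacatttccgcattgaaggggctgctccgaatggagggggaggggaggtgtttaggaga
UGP2 at 63841646: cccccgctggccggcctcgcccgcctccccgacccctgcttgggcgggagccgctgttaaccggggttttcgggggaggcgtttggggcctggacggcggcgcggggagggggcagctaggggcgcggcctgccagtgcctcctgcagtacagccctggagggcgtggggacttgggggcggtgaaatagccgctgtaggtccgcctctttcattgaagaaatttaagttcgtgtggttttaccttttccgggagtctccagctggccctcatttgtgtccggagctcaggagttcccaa
GBE1: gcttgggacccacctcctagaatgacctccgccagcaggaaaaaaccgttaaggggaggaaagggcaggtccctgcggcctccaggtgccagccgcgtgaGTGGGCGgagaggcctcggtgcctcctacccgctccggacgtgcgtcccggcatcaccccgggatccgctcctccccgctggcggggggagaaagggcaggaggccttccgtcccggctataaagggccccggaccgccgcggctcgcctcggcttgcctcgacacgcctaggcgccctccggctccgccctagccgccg
PYGL: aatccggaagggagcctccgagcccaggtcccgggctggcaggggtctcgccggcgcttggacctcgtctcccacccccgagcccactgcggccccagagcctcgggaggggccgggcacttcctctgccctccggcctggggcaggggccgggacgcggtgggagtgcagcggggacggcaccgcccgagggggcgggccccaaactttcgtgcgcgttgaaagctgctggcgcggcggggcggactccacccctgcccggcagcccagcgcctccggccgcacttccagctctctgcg
GYG1: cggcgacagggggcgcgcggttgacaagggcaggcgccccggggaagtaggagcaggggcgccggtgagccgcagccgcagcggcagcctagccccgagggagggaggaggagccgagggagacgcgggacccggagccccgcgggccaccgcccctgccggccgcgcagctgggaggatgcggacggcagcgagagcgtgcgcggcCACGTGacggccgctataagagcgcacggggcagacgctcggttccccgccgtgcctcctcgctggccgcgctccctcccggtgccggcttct
The letters searched on both strands were GTAAACA for forkhead factors, CACGTG for the E-box, TGACGT for the cAMP response element core and GTGGGCG for the EGR core. They are held by 3.42%, 7.26%, 7.98% and 9.52% of the 35116 promoters in the table, in that order. Of the 9 genes 7 were matched in the table, namely PYGL, PYGB, GYS1, GYG1, GBE1, UGP2 and PPP1R3C. GBE1 holds the EGR core at base 101, GYG1 the E-box at base 208 and PPP1R3C the E-box at base 206, counted from the 5′ end of each stretch. PYGL, PYGB, GYS1 and both UGP2 promoters in the table hold none of the 4 motifs. The promoters are rich in G and C, from 66% for UGP2 to 77.3% for GYG1, against a median of 58.7% over all promoters.

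The rest of the pathway was followed in a list of 40 glycogen genes taken from general knowledge of the pathway, with earlier results of these libraries known. Of these, 35 were in the table and tested, and the others (GYG2, G6PC, PPP1R3A, PPP1R1A and PRKAG3) were not analysed here. Of the 35, 8 rose with gefitinib, 11 fell and 16 did not pass limma's trend test at an adjusted p below 0.05, with a median log2 difference of -0.10. Over all 15229 genes 28.3% rose and 22.8% fell. All 4 genes of glucose entry fell.

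SLC2A3, a glucose transporter gene, had 1898, 1621 and 1742 normalized reads in gefitinib libraries, against 7924, 6839 and 6729 in control libraries. Its log2 difference was -2.03 ± 0.09 (SE), a fall with a limma adjusted p of 1.09e-06, lower in 3 of 3 gefitinib libraries than in any control library. The hexokinase genes HK1 and HK2, whose products make glucose 6-phosphate, fell by 1.00 ± 0.08 and 0.65 ± 0.07. SLC2A1, a broadly expressed glucose transporter gene, named after its value was seen, fell by 0.95 ± 0.14, with 3847 ± 560 and 7458 ± 1198 normalized reads (SD, n = 3 each) in gefitinib and control libraries.

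Between glucose 6-phosphate and glycogen, the phosphoglucomutase gene PGM1 did not pass the test, with a log2 difference of -0.15 ± 0.08 (SE). Its relative PGM2 did not pass either, at 0.14 ± 0.09. PGM2L1, which encodes the synthase of glucose 1,6-bisphosphate, the cofactor of phosphoglucomutase, had 1030, 1056 and 1059 normalized reads in gefitinib libraries, against 169, 143 and 167 in control libraries. All gefitinib libraries of PGM2L1 were far above all control libraries, and it rose by 2.71 ± 0.12 (limma adjusted p = 8.04e-07). GAA, the lysosomal glucosidase gene that degrades glycogen by another route, had 504, 573 and 529 normalized reads in gefitinib libraries and 186, 318 and 518 in control libraries, and its groups overlapped. Other genes that did not pass, named after their values were seen, were the liver synthase gene GYS2, with 3 reads in all gefitinib libraries and 0 in control, the glucose 6-phosphatase gene G6PC3 at -0.10 ± 0.17 and the glucose 6-phosphate transporter gene SLC37A4 at -0.06 ± 0.09.

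Phosphorylase kinase, which switches phosphorylase on, is built of regulatory alpha and beta, catalytic gamma and calmodulin subunits. The alpha subunit genes PHKA1 and PHKA2 fell by 0.47 ± 0.09 and 0.63 ± 0.10 in log2 units (SE, limma adjusted p = 0.00147 and 0.000695). The catalytic subunit gene PHKG2 had 905, 1178 and 1152 normalized reads in gefitinib libraries, against 451, 550 and 490 in control libraries, and rose by 1.11 ± 0.13 (limma adjusted p = 0.00011). PHKB, the beta subunit gene, had a log2 difference of 0.21 ± 0.08 that narrowly missed the threshold (limma adjusted p = 0.0546, and 0.0185 without control replicate 1, with alternatives spanning 0.0185 to 0.303). PHKG1, the muscle form of the catalytic subunit gene, had 6.61, 26.2 and 27.2 normalized reads in gefitinib libraries and 4.23, 14.5 and 8.69 in control libraries (limma adjusted p = 0.205, or 0.0335 when gefitinib replicate 1 was left out, with alternatives spanning 0.0335 to 0.475).

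Among the other PPP1R3 genes, which like PPP1R3B and PPP1R3C encode glycogen-targeting subunits, PPP1R3G fell and 3 did not pass. PPP1R3G had 13.2, 4.52 and 6.09 normalized reads in gefitinib libraries, against 31.0, 23.4 and 26.1 in control libraries (log2 difference -1.75 ± 0.40, limma adjusted p = 0.00537). Its groups did not overlap, at a low level in both. PPP1R3D, PPP1R3E and PPP1R3F had log2 differences of -0.24 ± 0.14, -0.78 ± 0.36 and -0.45 ± 0.30. The limma adjusted p of PPP1R3E, 0.0993, was 0.0314 without gefitinib replicate 3, with alternatives spanning 0.0314 to 0.289. PPP1R3D and PPP1R3F were also lower in every gefitinib library than in any control library, as were 25.7% of all genes. For PPP1R3F the gap was narrow, with 25.3 normalized reads in gefitinib library 3 against 25.4 in control library 1. The catalytic subunit genes of protein phosphatase 1 moved apart: PPP1CC rose by 0.95 ± 0.08, PPP1CB fell by 0.86 ± 0.11, and PPP1CA had a difference of 0.05 ± 0.10. PPP1R2, which encodes an inhibitor of the phosphatase, rose by 0.94 ± 0.11.

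GSK3A, the gene of a kinase that inhibits glycogen synthase, had 1813, 1880 and 1867 normalized reads in gefitinib libraries, against 676, 1034 and 1345 in control libraries. It rose by 0.92 ± 0.21 (SE, limma adjusted p = 0.00468), while its relative GSK3B had a difference of 0.12 ± 0.08 that did not pass. AMPK is an energy-sensing kinase whose beta subunits bind glycogen, and 3 of its 6 tested subunit genes rose and 1 fell. PRKAB2, a beta subunit gene, had 549, 858 and 841 normalized reads in gefitinib libraries, against 145, 127 and 85.9 in control libraries. It rose by 2.65 ± 0.24 (limma adjusted p = 2.21e-05), and the gamma subunit gene PRKAG2 fell by 0.87 ± 0.10. The other subunit genes that rose, PRKAB1 by 0.45 ± 0.10 and PRKAG1 by 0.33 ± 0.08, were named after their values were seen, as were GSK3A and the catalytic subunit genes PRKAA1 and PRKAA2, which did not pass, at 0.03 ± 0.08 and -0.14 ± 0.11.

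The genes mutated in Lafora disease, a disorder of abnormal glycogen, were both called lower and are also named after their values were seen. EPM2A, which encodes the glycogen phosphatase laforin, had 163, 136 and 85.8 normalized reads in gefitinib libraries, against 451, 399 and 373 in control libraries (log2 difference -1.70 ± 0.23, limma adjusted p = 0.000244). NHLRC1, which encodes its partner malin, had 0 reads in each gefitinib library and 1, 1 and 2 reads in control libraries, so its call rests on 4 reads. STBD1, which encodes a glycogen-binding protein, did not pass, with 5.29, 1.81 and 1.88 normalized reads in gefitinib libraries and 4.23, 3.35 and 10.6 in control libraries.

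**Figure D4:**
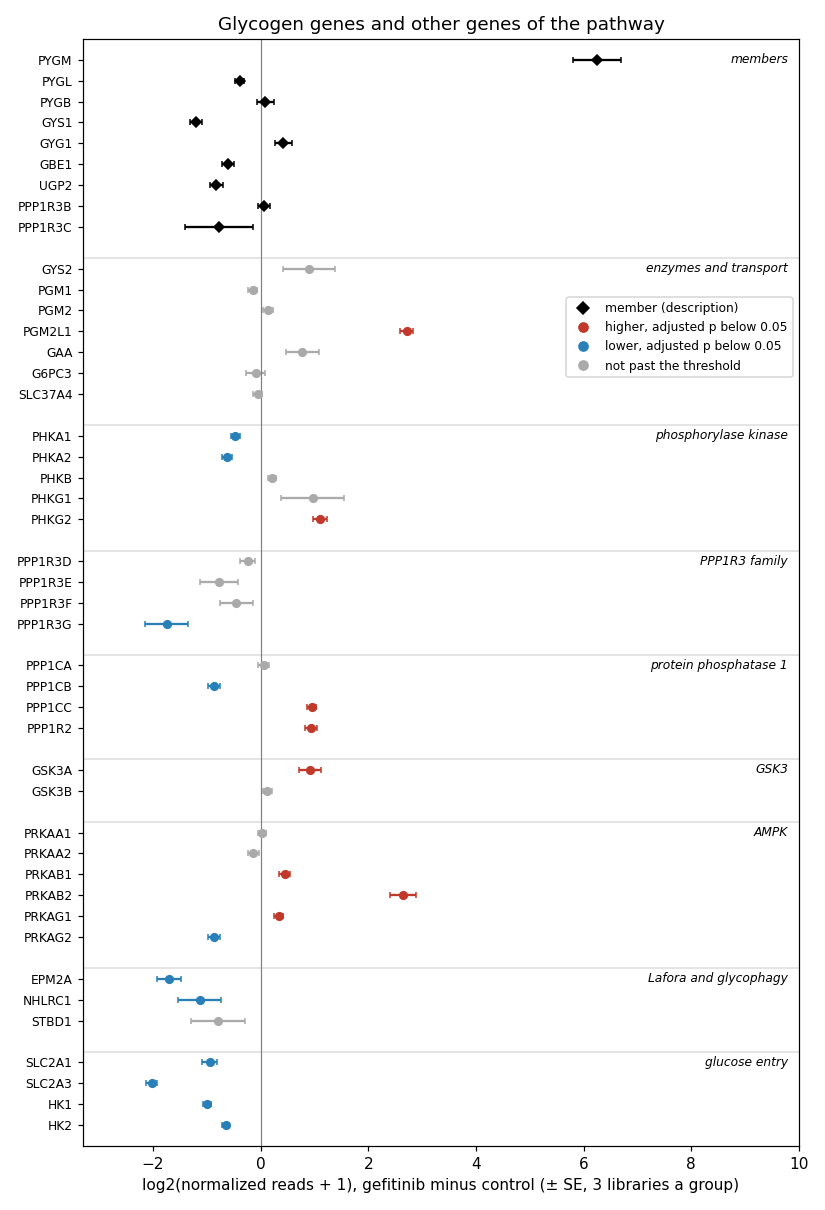
Log2 difference of normalized reads + 1, gefitinib minus control (x axis, ± SE, 3 libraries a group), for the 9 members (black diamonds, given as a description) and 35 other genes of the pathway (circles), grouped by role. Red circles rose and blue circles fell at an adjusted p below 0.05, and grey circles did not pass: PYGM lies far to the right at 6.24, and the 4 genes of glucose entry all lie left of 0.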

How the data were processed

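Messenger RNA was measured in 3 gefitinib and 3 control samples, grouped by their titles. Per the submitters' processing notes, reads were handled with STAR and HTSeq on GRCh38, without versions, and the sources used here do not say whether counting used strand. The deposited table holds a never-negative signal: reads per gene, scaled by the authors so that each library sums to 18085800. The values came out as whole multiples of 1 read for 100% of values above 0 (tolerance 0.01 read), and these whole reads served the count-based alternatives. The other deposited table has 6 per-sample columns whose names match no label, which are not used. Only its gene IDs and positions served to check the annotation, where ID and start equalled GENCODE release 29 (GRCh38) for 9 of 9 members.

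The 9 members and all lists were chosen with earlier results of these data known. Log2(normalized reads + 1) was fitted with limma-trend 3.58.1 (R 4.3.3), 2-sided, over 15229 rows with reads (147 of 15376 had none), with Benjamini-Hochberg adjustment and a threshold of 0.05. 1 gene of the list of other pathway genes was left out and is not reported here. The named genes were the 9 members, up to 5 genes with the smallest p in each direction among other pathway genes past the threshold, the phosphorylase kinase and PPP1R3 genes, genes overlapping or next to PYGM, and the 5 genes most correlated with PYGM. Alternatives were pseudocounts of 0.5 and 5, filters on low values, TMM and DESeq2 1.42.0 size factors, the tests of edgeR 4.0.16, limma-voom and DESeq2 on whole reads, a replicate block and leaving out each library. Markers of hepatocytes, fibroblasts and blood were also looked at. CPS1 had 422 to 636 normalized reads with gefitinib and 145 to 212 in control, and COL1A1 had 47.6 to 65.6 and 31.7 to 70.5. Every other gene of these lists in the table had at most 8.91 in any library. This maximum was CD14, higher in every gefitinib library, with 7.94, 4.52 and 8.91 normalized reads against 0, 0 and 0.965 in control libraries. Within each group, every pair of libraries differed by more than sampling noise. Exon lengths are unions of annotated exons. No exon of another gene overlaps an exon of a member, except an antisense gene over 180 bases of PYGL and another over 245 bases of PPP1R3B. Spans of other genes overlap without shared exon bases. Among them are the coding genes ABHD12 at PYGB and ABHD12B at PYGL on the opposite strand, and the pseudogene SETP6 at GBE1 on the same strand.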

Additional observations from a re-analysis of the deposited data

How the results depend on the processing

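The log2 difference of PYGM was between 5.45 and 6.55 over the 17 alternatives, and the signs of GYS1, UGP2, GBE1 and PYGL were as reported in each. Since the members were chosen on this contrast, this is no sign of stability. PYGB changed sign to -0.00091 with DESeq2 and ranged from -0.12 (without control replicate 1) to 0.23 when a library was left out. PPP1R3B changed sign to -0.0032 with TMM factors, -0.0072 with DESeq2 size factors, -0.00091 and -0.0021 with edgeR after and without its count filter, -0.0063 with DESeq2, and -0.013 with limma-voom, and ranged from -0.028 (without gefitinib replicate 2) to 0.10 when a library was left out. The cause was not tested. The count of members called higher was 2 with a mean of 10 or more and with at least 1 CPM in 3 libraries, where fewer genes are tested, and 1 to 2 when a library was left out. With the longest transcript as length, PYGL took 54.2% of the phosphorylase sum with gefitinib and 66.3% in control, and PYGB 37.8% and 33.6%. Of the 35 other pathway genes, between 8 and 11 rose and between 10 and 12 fell over the alternatives. Over all 15229 genes, the main setting called 4312 higher and 3473 lower. The counts lay closer together with other scaling, at 3932 and 3796 with TMM factors and 3918 and 3827 with DESeq2 size factors. After its count filter edgeR called 3707 higher and 3752 lower of 12167. Leaving out 1 library gave 3467 to 4582 higher and 2861 to 4001 lower.

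The replicate numbers are not stated to pair samples, and deviations of same-numbered libraries correlated at 0.13, 0.04 and 0.09, with control replicate 2 closer to gefitinib replicate 3 than to its own number. With the replicate block 4438 genes were higher and 3552 lower, 9 other pathway genes rose and 10 fell, and 1 member was called higher and 4 lower. Depth limits PPP1R3C, NHLRC1 and the control level of PYGM, each at 10 reads or fewer in every control library.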
